A study of Mus musculus with 10 samples.

Results

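Expression of 10 genes that encode chaperones and folding enzymes of the endoplasmic reticulum (ER) was compared in spleens of mice with and without Dusp6, the gene of a phosphatase that inactivates the kinase ERK. The genes are Hsp90b1, Hspa5, Calr, Pdia4, Pdia6, Sdf2l1, Dnajb9, Dnajb11, Creld2 and Manf. They were picked by name from the 54532 genes of the deposited table for their role in secretory cells. No measured value is part of that rule, but the choice was made with earlier results of these data known. All 10 were in the table and all 10 passed the filter on low values, which left 21296 genes in the test.

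All mice had KRN serum-induced arthritis (KSIA), a model that passes joint disease on with the autoantibodies in serum of arthritic KRN mice. The DUSP6 KO group held 5 mice homozygous for the Dusp6tm1Jmol allele, which the sample labels call a knockdown, and the WT group held 5 C57BL/6J mice. The groups were purchased, not described as littermates, and 8 to 12 weeks old. All mice received 100 µL of the pooled serum by intraperitoneal injection on days 0 and 2, spleens were taken at day 9, the peak of arthritis, and no mouse without arthritis was analysed here. One poly-A library was made per whole spleen. The labels speak of mice of both sexes without giving the sex of a spleen. In every library Xist was at most 0.0206 and the Y-linked Ddx3y at least 14.4 in FPKM (fragments scaled to the length of the gene and the depth of the library). Every library thus had the pattern of a male spleen. Replicates carry the animal numbers of the labels, 26, 21, 73, 01 and 03 for DUSP6 KO and 65, 67, 73, 77 and 83 for WT.

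Proteins that are secreted or sit in membranes fold in the ER, where chaperones hold unfolded chains, disulfide isomerases join their cysteines, and co-chaperones drive the cycle of the major chaperone BiP. When unfolded proteins accumulate, the sensors IRE1, PERK and ATF6 start the unfolded protein response, and the transcription factors XBP1 and cleaved ATF6 raise genes of the folding machinery, while ATF4 raises genes of amino acid supply and stress. In the spleen this machinery is richest in plasma cells, whose ER expands under XBP1 as they secrete antibody. A well known control element is the ER stress response element (ERSE), in which NF-Y binds CCAAT and ATF6 or XBP1 binds CCACG after a fixed spacer.

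The promoters of the genes are shown first. The choice of genes did not read promoter sequence, but it took genes of the folding machinery, which ATF6 and XBP1 raise. Matches of the ERSE in them are therefore a description and not independent support. RefSeq promoters (GRCm38.p6, 250 bases before to 50 after the start) were found for 9 of the 10 genes, all but Manf. The starts are those of RefSeq and can differ from the gene bounds of GENCODE. An exact ERSE, written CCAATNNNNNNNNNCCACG and searched on both strands, was present in 5 of the 9, compared with 39 of 32851 promoters of all genes (0.119%). The stretches of 250 bases before the start of these 5 genes follow, written 5' to 3' on the strand of the gene, with the CCAAT and CCACG parts of each ERSE in capitals. Where the element lies on the opposite strand, as in the second match of Hsp90b1, in Calr and in Creld2, the capitals read CGTGG and ATTGG. They come from chr10:86705445-86705694 for Hsp90b1 (minus strand), chr2:34771840-34772089 for Hspa5 (plus), chr8:84846932-84847181 for Calr (minus), chr12:17266339-17266588 for Pdia6 (plus) and chr15:88819396-88819645 for Creld2 (plus).
Hsp90b1: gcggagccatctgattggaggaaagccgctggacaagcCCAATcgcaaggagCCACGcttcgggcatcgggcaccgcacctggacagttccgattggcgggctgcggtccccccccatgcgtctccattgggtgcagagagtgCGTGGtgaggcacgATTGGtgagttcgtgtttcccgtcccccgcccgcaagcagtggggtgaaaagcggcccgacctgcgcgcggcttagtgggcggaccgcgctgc
Hspa5: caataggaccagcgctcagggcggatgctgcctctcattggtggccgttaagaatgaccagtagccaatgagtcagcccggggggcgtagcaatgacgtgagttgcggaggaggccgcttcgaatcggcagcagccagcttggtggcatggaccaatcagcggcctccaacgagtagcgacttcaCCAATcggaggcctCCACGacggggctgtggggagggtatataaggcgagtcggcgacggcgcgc
Calr: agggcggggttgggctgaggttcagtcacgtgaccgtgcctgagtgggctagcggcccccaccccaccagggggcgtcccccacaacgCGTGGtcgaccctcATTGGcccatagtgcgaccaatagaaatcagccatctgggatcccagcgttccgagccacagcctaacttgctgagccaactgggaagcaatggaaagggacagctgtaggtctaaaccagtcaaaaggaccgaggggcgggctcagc
Pdia6: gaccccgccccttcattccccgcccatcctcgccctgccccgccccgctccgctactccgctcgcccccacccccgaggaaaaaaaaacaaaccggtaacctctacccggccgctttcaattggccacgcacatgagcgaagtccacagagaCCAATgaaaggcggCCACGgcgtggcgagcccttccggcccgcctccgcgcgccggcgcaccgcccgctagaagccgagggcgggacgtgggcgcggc
Creld2: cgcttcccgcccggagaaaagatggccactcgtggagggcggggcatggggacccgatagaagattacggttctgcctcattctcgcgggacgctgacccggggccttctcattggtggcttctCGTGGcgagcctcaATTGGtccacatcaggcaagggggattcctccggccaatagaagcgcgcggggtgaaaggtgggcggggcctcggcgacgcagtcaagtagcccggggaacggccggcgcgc

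Hsp90b1 had 2 ERSE matches, at bases -212 to -194 and -107 to -89 from its start. The element of Hspa5 was closest to the start, at -65 to -47, and those of Pdia6, Creld2 and Calr lay at -98 to -80, -126 to -108 and -162 to -144. Dnajb11 held the second form of the element, ERSE-II, written ATTGGNCCACG, at +8 to +18, just after its start; 12 promoters of all genes (0.0365%) held that form. The 29 bases around it (chr16:22857843-22857871, plus strand) are shown with its parts in capitals.
Dnajb11: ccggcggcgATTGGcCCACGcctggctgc

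Pdia4, Sdf2l1 and Dnajb9 had neither form in these 300 bases. The core of the XBP1 element UPRE, TGACGTGG, was in 0 of the 9 promoters and in 0.676% of all. The short parts were common everywhere: CCAAT was in all 9 and in 37.4% of all promoters, and CCACG in all 9 and in 32.8% of all. These are matches of letters, and binding was not measured.

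**Figure D1:**
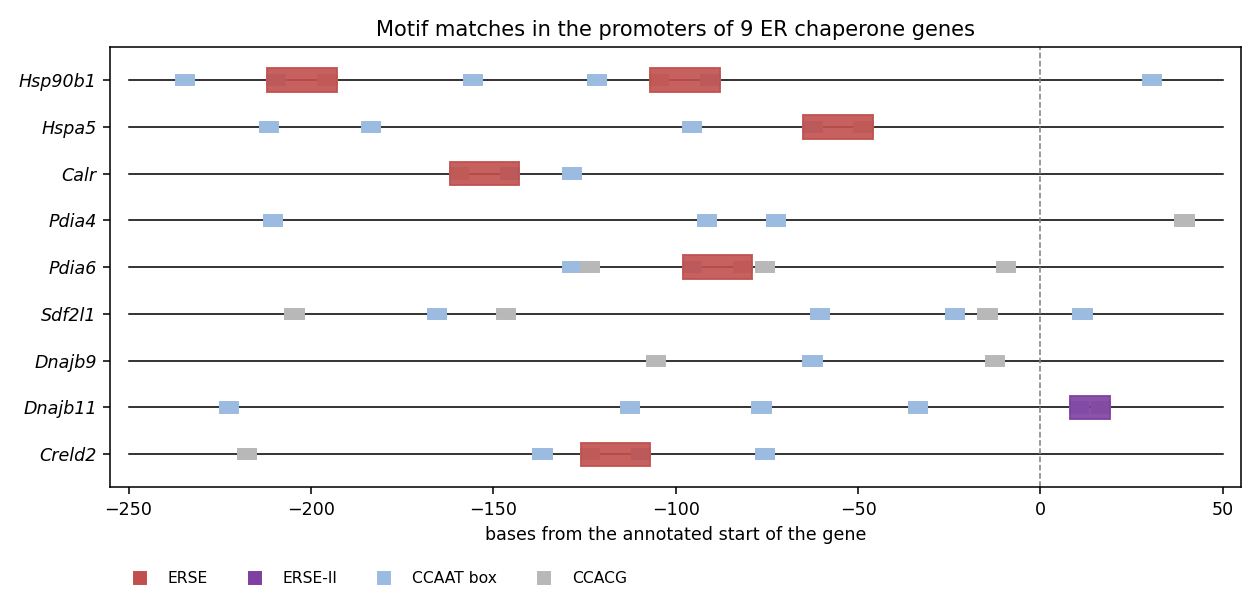
Matches of the ERSE (red), the ERSE-II (purple), the CCAAT box (light blue) and CCACG (grey) on either strand in 9 promoters, with the distance from the annotated start in bases on the x axis. An ERSE is seen in Hsp90b1 (2 matches), Hspa5, Calr, Pdia6 and Creld2, an ERSE-II in Dnajb11, and neither in Pdia4, Sdf2l1 and Dnajb9.

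Depth was 14990474 to 19822673 reads per DUSP6 KO library and 15611652 to 18422147 per WT library, and each of the 10 genes was read by 369 to 12805 fragments per library. Dusp6 itself ranged over 0.308 to 0.624 FPKM in DUSP6 KO spleens and 16.6 to 24.0 FPKM in WT spleens. Markers of B cells, which are abundant in spleen, were present in every library (8 markers, summing to 685 to 1748 FPKM). As a measured fact for all results that follow, WT replicates 67 and 65 contained RNA of exocrine pancreas, a tissue rich in ER chaperones. Its 14 marker genes summed to 20300 FPKM in WT 67 (2.65% of reads), to 252 in WT 65 (0.0370% of reads) and to 9.55 to 26.2 in the other 8 libraries, where 9 to 11 of the 14 had no read. The counts of the 10 genes and of the gene lists are therefore also given without these 2 libraries, a setting chosen after seeing the data.

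Over the 10 libraries the mean level fell in the order Calr (189 FPKM), Hspa5 (143), Hsp90b1 (114), Pdia4 (96.7), Pdia6 (47.7), Sdf2l1 (36.6), Creld2 (34.7), Dnajb11 (33), Manf (25.5) and Dnajb9 (14.1). FPKM is a level per length of gene, and the deposited length can exceed that of the transcript. It was 4032 bases for Hsp90b1, 2880 for Calr and 2549 for Dnajb9. Their longest coding transcripts in GENCODE had 2825, 2184 and 2461 bases. The order of levels between genes therefore depends in part on these lengths and is approximate. Calr exceeded Hspa5, and Hspa5 exceeded Hsp90b1, in 10 of 10 libraries. Neighbours in this order that were not told apart by their spread were Sdf2l1 and Creld2, of which Sdf2l1 was higher in 7 of 10 libraries, and Creld2 and Dnajb11, of which Creld2 was higher in 5. Hsp90b1 exceeded Pdia4 in 8 of 10. The order differed between the groups in the middle only, where Creld2 was sixth in WT and eighth in DUSP6 KO.

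In DUSP6 KO the mean of all 10 genes was lower than in WT, by 5.11% (Dnajb9) to 29.8% (Creld2) on the scale of log2(FPKM + 0.1). In the limma test across all genes, 6 of the 10 were lower at an unadjusted p under 0.05 (Hsp90b1, Calr, Pdia4, Pdia6, Sdf2l1 and Creld2), compared with a background of 3.03% of all genes tested, and 0 were higher (background 2.62%). None of the 10 passed the Benjamini-Hochberg threshold of 0.05, which 15 of the 21296 genes (0.0704%) did, so no gene of the group can be called changed on its own. None passed it in any of 21 alternative settings, limma voom among them. All 10 log2 fold changes were below 0, compared with 51.0% of all genes, and their median was -0.25, compared with -0.0046 over all genes. Among the 5175 genes of 10 FPKM or more on average, as these 10 are, 2.80% were lower at that p and 50.8% had a log2 fold change below 0. The 10 genes share libraries and move together, so they do not count as 10 independent observations. Without WT 65 and WT 67, 6 genes were again lower (background 2.81%), 0 were higher (background 2.24%) and the median was -0.31, but Hspa5 and Dnajb9 took the place of Calr and Pdia4. Leaving out WT 73, the WT library with the highest value of 5 of the genes, left 3 of the 6.

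In no gene did the 5 DUSP6 KO values all lie below the 5 WT values, as they did in 0.563% of the genes tested. Whole spleens were sequenced, so fewer cells of a type that is rich in ER and less RNA per cell cannot be told apart.

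**Figure D2:**
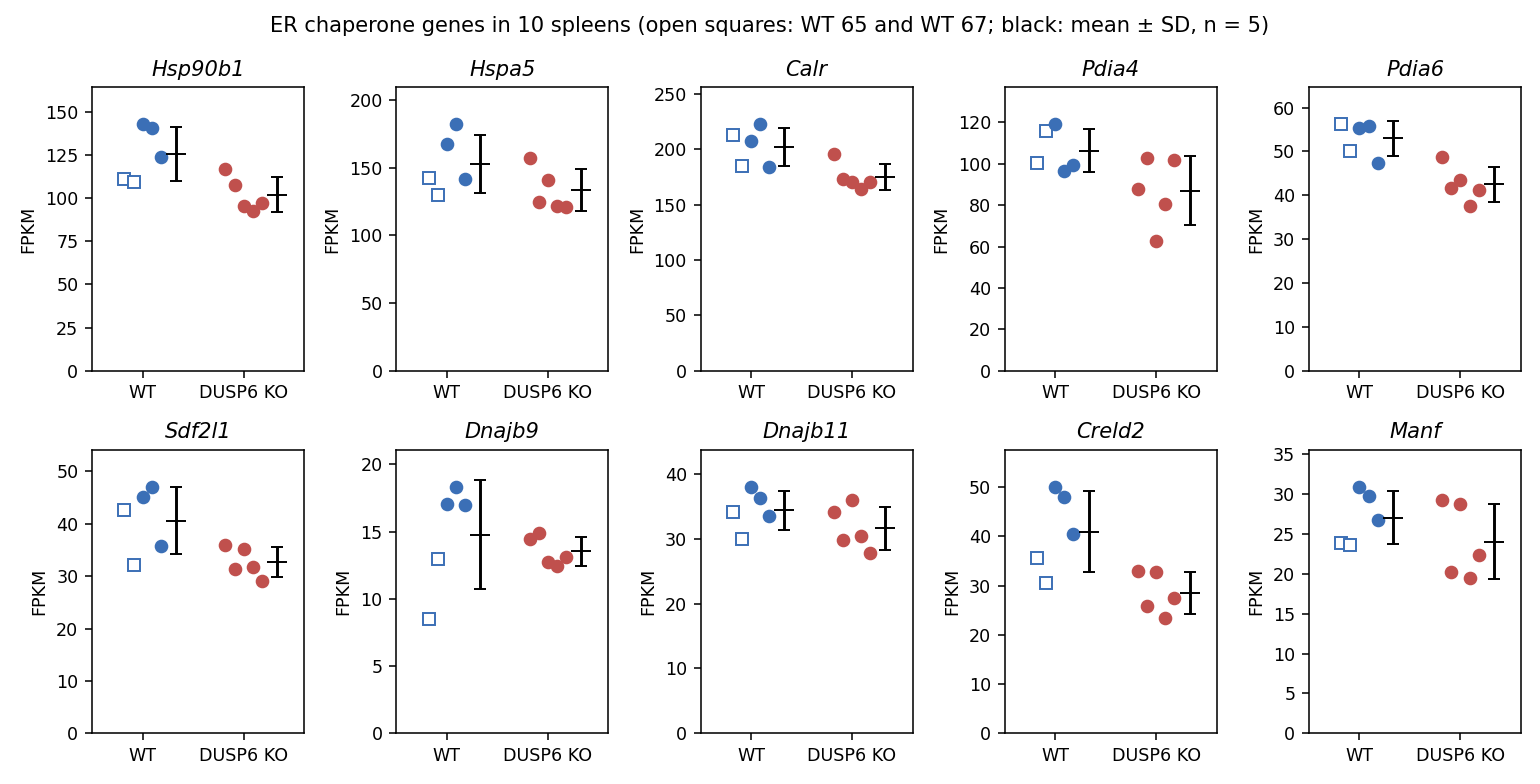
FPKM of each of the 10 genes (y axis, from 0) in 5 WT (blue) and 5 DUSP6 KO (red) libraries, with the mean ± SD of each group in black; open squares mark WT 65 and WT 67, which contained pancreas RNA. The groups overlap in every panel. Creld2 and Pdia6 have the fewest WT values below the highest DUSP6 KO value, 1 each. Of DUSP6 KO values above the lowest WT value, Creld2 has 2, and Pdia6, Hsp90b1 and Calr have 1 each.

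Hspa5 encodes BiP, the HSP70 chaperone of the ER, which binds immunoglobulin heavy chains and holds the 3 stress sensors inactive. Its FPKM values were 157, 125, 141, 122 and 121 in KO 26, KO 21, KO 73, KO 01 and KO 03, and 143, 130, 168, 182 and 142 in WT 65, WT 67, WT 73, WT 77 and WT 83. WT 77 and WT 73 stood highest, KO 26 came next, and 3 of the 5 WT values fell below it. The means were 133 ± 15.5 and 153 ± 21.4 FPKM (SD, n = 5 each), and the log2 fold change was -0.19 with a 95% interval from -0.45 to 0.06 (limma adjusted p = 0.944). Without WT 65 and WT 67 it was -0.30 (unadjusted p = 0.0458 in limma).

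Hsp90b1, or GRP94, is the HSP90 of the ER and folds integrins, Toll-like receptors and immunoglobulins. Its values were 117, 107, 95.5, 92.5 and 96.9 FPKM in DUSP6 KO and 111, 109, 143, 141 and 124 in WT, in the same order of replicates. The DUSP6 KO spleens other than KO 26 lay below every WT spleen, and KO 26 lay above WT 65 and WT 67. The means were 102 ± 10.1 and 126 ± 15.9 FPKM (SD, n = 5 each), 1.23-fold higher in WT (log2 fold change -0.30, SE 0.10, unadjusted p = 0.0164, adjusted p = 0.753, limma). The unadjusted p stayed under 0.05 in all 21 alternative settings, and without the pancreas-bearing libraries the change was -0.42.

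Hsp90b1 lies on chromosome 10 (86690209 to 86705509, GRCm38, minus strand), 12.6 Mb from Dusp6. Within 0.5 Mb of its start lie the starts of 10 tested genes, Timp3, 1810014B01Rik, Gm15344, Ttc41, Fabp3-ps1, Nt5dc3, Gm16268, Stab2, Gm16271 and Gm16269. None of them was lower and 1 was higher at an unadjusted p under 0.05, compared with 3.03% and 2.62% of all genes tested. The group means of Ttc41, Fabp3-ps1, Gm16268, Gm16271 and Gm16269 were only 0.06 to 0.62 FPKM. That is near the filter of 0.1 FPKM, so the absence of a call in these genes carries little information. The higher one was Stab2, at 0.30 on the log2 scale (unadjusted p = 0.0479, adjusted p = 0.875, limma). Without WT 65 and WT 67, 9 of the 10 neighbours were tested, Gm15344 was lower (-0.86, unadjusted p = 0.00961 in limma) and none was higher (Stab2 at 0.27, unadjusted p = 0.104 in limma). The ratio of Hsp90b1 to Hspa5, which sets the gene against a chaperone on another chromosome, was 0.745, 0.860, 0.678, 0.758 and 0.799 in DUSP6 KO and 0.780, 0.840, 0.851, 0.773 and 0.874 in WT. These ranges overlapped, and the log2 ratios of -0.39 ± 0.13 and -0.28 ± 0.08 (SD, n = 5 each) differed by -0.10, within the spread between spleens (two-sided exact permutation test, p = 0.167). Part of the Hsp90b1 gene model overlaps Gm15344 on the same strand (2.86 FPKM) and 1810014B01Rik on the opposite one (2.22 FPKM).

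Calr, or calreticulin, is a calcium-binding lectin chaperone of glycoproteins and of MHC class I. It was at 195, 173, 171, 165 and 171 FPKM in DUSP6 KO and at 213, 185, 208, 223 and 184 in WT. KO 26 lay above WT 67 and WT 83, and the other 4 DUSP6 KO spleens were below the lowest WT value. The log2 fold change was -0.21 (means 175 ± 11.9 and 202 ± 17.3 FPKM, SD, n = 5 each, unadjusted p = 0.0336, adjusted p = 0.822, limma). It passed an unadjusted p of 0.05 in 9 of the 21 alternative settings.

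Pdia6 and Pdia4 are disulfide isomerases, and both are found in complexes with BiP. Pdia6 was at 48.6, 41.6, 43.5, 37.6 and 41.3 FPKM in DUSP6 KO and at 56.2, 50.2, 55.3, 55.8 and 47.4 in WT. A single crossing, of KO 26 over WT 83, kept its groups from separating. Its log2 fold change of -0.32 had the smallest p of the 10 genes (means 42.5 ± 4.03 and 53.0 ± 3.97 FPKM, SD, n = 5 each, SE 0.08, unadjusted p = 0.00316, adjusted p = 0.462, limma), with a two-sided exact permutation p of 0.0159, where the smallest possible p is 0.00794. WT 65, a library with pancreas RNA, had its highest value, and without WT 65 and WT 67 the change was -0.31.

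Pdia4 had a different pattern over the libraries. It was at 87.9, 103, 62.8, 80.3 and 102 FPKM in DUSP6 KO and at 100, 116, 119, 96.4 and 99.4 in WT. KO 21 and KO 03 lay among the WT spleens, and KO 73 lay far below all others. The log2 fold change of -0.30 (unadjusted p = 0.0483, adjusted p = 0.875, limma) shrank to -0.19 without KO 73 (unadjusted p = 0.0949). Its two-sided exact permutation p was 0.0794. In that test 5 of the 10 genes were under an unadjusted 0.05, namely Hsp90b1, Calr, Pdia6, Sdf2l1 and Creld2. KO 73 was also the library with the highest sum of 8 erythroid markers, 3418 FPKM against 427 to 2217 in the other 9. It also had the lowest sums of B cell markers (685 against 778 to 1748) and of T cell markers (139 against 169 to 282), and the highest sum of macrophage markers (1373 against 863 to 1189). The part of these markers in the result was not tested.

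Dnajb9, Dnajb11 and Sdf2l1 serve BiP: Dnajb9 (ERdj4) and Dnajb11 (ERdj3) are J-domain co-chaperones that stimulate it, and Sdf2l1 forms a complex with Dnajb11. Sdf2l1 was at 35.9, 31.4, 35.2, 31.7 and 29 FPKM in DUSP6 KO and at 42.7, 32.2, 45.2, 47.1 and 35.8 in WT. WT 77, WT 73 and WT 65 were above every DUSP6 KO spleen and WT 67 and WT 83 were among them. Its log2 fold change was -0.30 (unadjusted p = 0.0234, adjusted p = 0.789, limma). Dnajb11, its partner, ranged from 27.7 to 36.0 FPKM in DUSP6 KO and from 29.9 to 38.0 in WT, and its log2 fold change was -0.12 (95% interval from -0.33 to 0.08).

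Dnajb9 had the smallest difference of the 10 and was the only gene whose direction turned when a library was left out. It was at 14.4, 14.9, 12.7, 12.5 and 13.1 FPKM in DUSP6 KO and at 8.47, 13.0, 17.1, 18.3 and 17.0 in WT. WT 73, WT 77 and WT 83 were above all DUSP6 KO spleens, whereas WT 65 was below all of them. The log2 fold change was -0.08 (95% interval from -0.50 to 0.34, limma adjusted p = 0.993). Without WT 65 it was -0.26 (unadjusted p = 0.0442), without WT 65 and WT 67 it was -0.37 (unadjusted p = 0.00323), and without WT 77 it was 0.02.

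Creld2 and Manf are small, partly secreted proteins that ER stress induces strongly. Creld2, which has disulfide isomerase activity, was at 33.1, 25.9, 32.8, 23.3 and 27.4 FPKM in DUSP6 KO and at 35.6, 30.6, 50.1, 48.0 and 40.6 in WT. WT 73 and WT 77 were far above the DUSP6 KO spleens, and WT 67 alone lay within the DUSP6 KO range. Of the 10 genes it had the largest difference, 28.5 ± 4.29 against 41.0 ± 8.21 FPKM (SD, n = 5 each), 1.43-fold higher in WT (log2 fold change -0.51, SE 0.15, unadjusted p = 0.00639, adjusted p = 0.557, limma). It grew to -0.70 without WT 65 and WT 67 (adjusted p = 0.401). Manf, a BiP-binding protein also known as a trophic factor, ranged from 19.5 to 29.3 FPKM in DUSP6 KO and from 23.6 to 30.9 in WT, and its log2 fold change was -0.18 (95% interval from -0.48 to 0.12). Its gene model overlaps Dcaf1 on the opposite strand (6.18 FPKM) and Rbm15b on the same strand (12.3 FPKM), and the strand setting of the counting is not stated, so its level is uncertain.

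**Figure D3:**
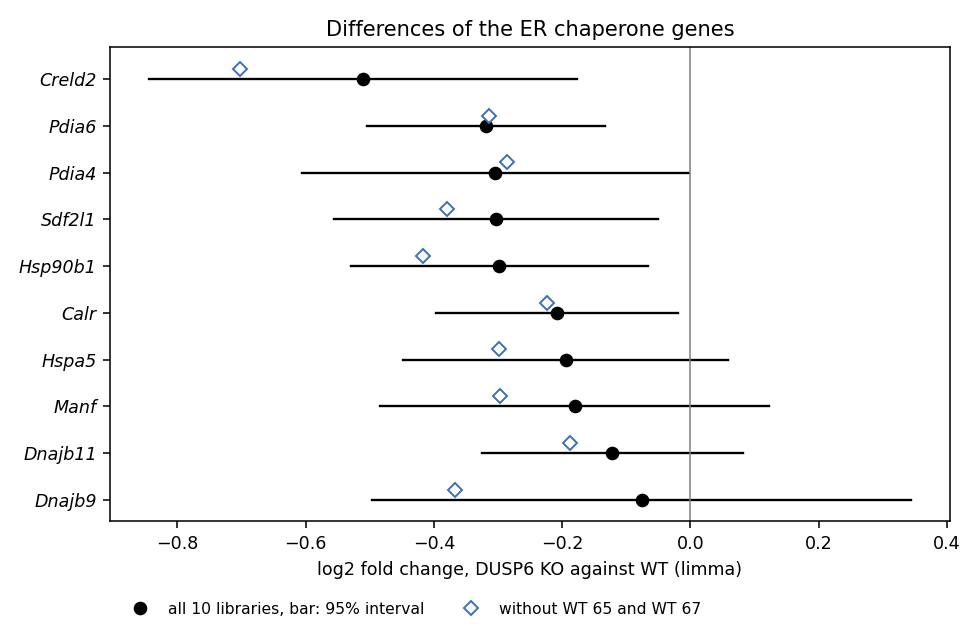
log2 fold change of DUSP6 KO against WT from limma (x axis) for the 10 genes, with 95% intervals as bars around the value over all 10 libraries (black) and the value without WT 65 and WT 67 as open diamonds. All points lie below 0, the black ones from -0.51 (Creld2) to -0.08 (Dnajb9), and the intervals of Hspa5, Manf, Dnajb11 and Dnajb9 include 0.

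Single spleens stood high or low across most of the 10 genes. WT 73 was among the 3 highest libraries for 10 of the 10 genes and WT 77 for 9, and between them they held the highest value of 9 genes. KO 01 was among the 3 lowest for 9 genes and KO 03 for 8. The summed level of the 10 genes was 614 to 753 FPKM in DUSP6 KO and 720 to 877 in WT, with KO 26 above WT 67 and WT 83 on that scale. Over the 10 libraries, the 28 pairs among the genes other than Pdia4 and Dnajb9, which were set apart after seeing the values, had a Pearson r of log2 levels between 0.63 and 0.95 (median 0.85). Pdia4 had an r between -0.16 and 0.54 with the other 9 and Dnajb9 between 0.08 and 0.60. These correlations share libraries and the difference between groups, and they are given as a description. With each gene centred on its group mean, the median r was 0.76 among the 8, -0.26 for Pdia4 and 0.24 for Dnajb9.

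**Figure D4:**
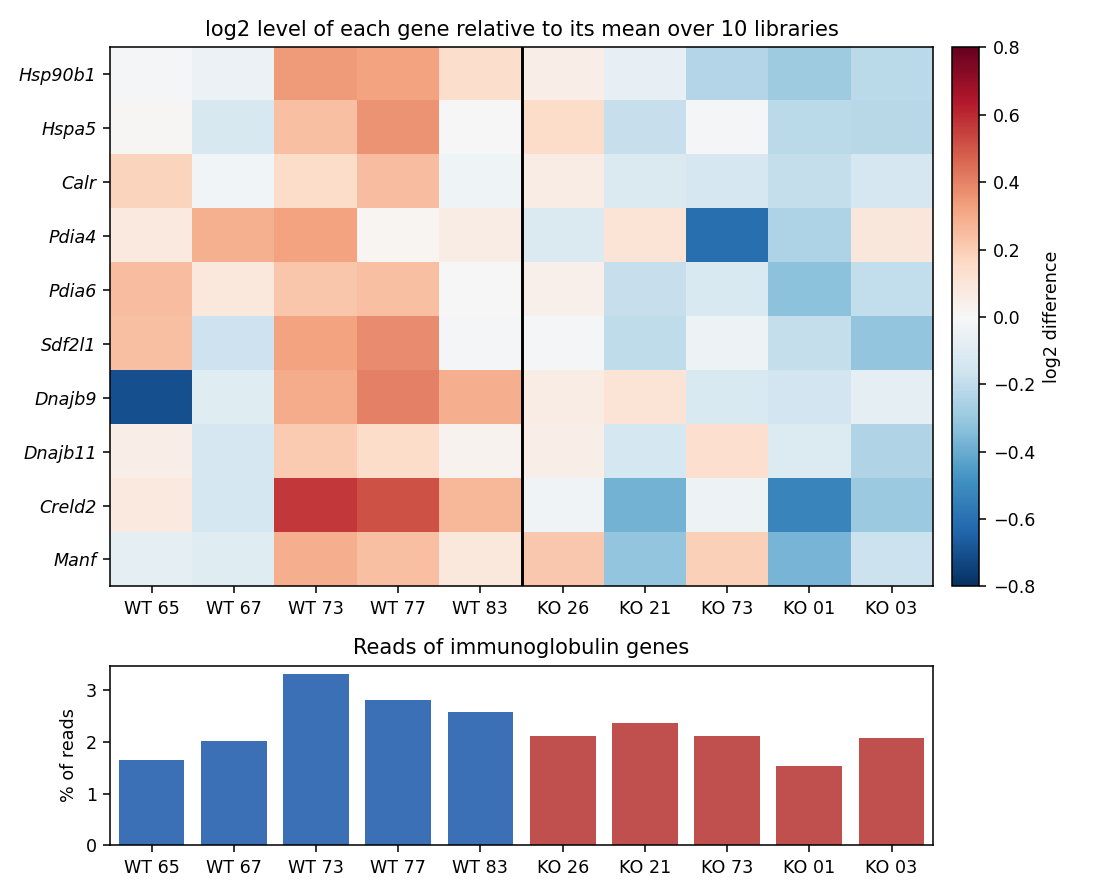
Upper panel: log2 level of each of the 10 genes relative to its own mean, by library, WT on the left and DUSP6 KO on the right. Lower panel: percent of reads on immunoglobulin genes in the same libraries; WT 73 and WT 77 are darkest red in most rows and have the tallest bars, and KO 01, blue in every row, has the shortest.

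Antibody genes were the genes most like the 10 over the spleens. The genes whose levels, centred on group means, were most correlated with the mean of the 10 among 13412 genes of at least 1 FPKM on average were Igkv19-93, Ighv1-18, Ube2j1, Igkv6-14, Ighv1-64, Igkv4-55, Igkv6-15, Cox16, Igkv10-96 and Ighv1-85 (Pearson r 0.92 to 0.87 over 10 libraries). Immunoglobulin genes made up 8 of these 10, all of them variable genes, and 17 of the nearest 50. Of all genes ranked, 1.76% were immunoglobulin genes of any kind. These variable genes are near copies of each other, so the levels of single ones are uncertain. Ube2j1 is a ubiquitin-conjugating enzyme of ER-associated degradation. Immunoglobulin genes took 2.11, 2.36, 2.11, 1.54 and 2.07% of reads in DUSP6 KO and 1.65, 2.02, 3.31, 2.81 and 2.58% in WT. The 3 highest shares belonged to WT 73, WT 77 and WT 83, which also had the highest means of the 10 genes when each gene was centred on the log2 scale, and the lowest to KO 01, which had the lowest mean. WT 65 had the next lowest share. By summed FPKM, however, WT 65 (768) and KO 26 (753) lay above WT 83 (749). Rescaling the libraries on reads outside antibody, T cell receptor, haemoglobin and mitochondrial genes left 5 of the 6 genes below an unadjusted p of 0.05 (all but Calr).

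Plasma cells were also followed by markers other than antibody genes. Of the 8 markers, 0 were lower and 0 higher at an unadjusted p under 0.05, and the median log2 fold change was -0.15. Over all genes tested, 3.03% were lower and 2.62% higher, and 2.81% and 2.24% without WT 65 and WT 67. Without WT 65 and WT 67, 2 of the 8 were lower at that p, Sdc1 (-0.41, unadjusted p = 0.0431 in limma) and Eaf2 (-0.75, unadjusted p = 0.0462 in limma), 7 of the 8 were below 0, the median was -0.31 and Jchain was at -0.31. Their summed level was 540 to 866 FPKM in DUSP6 KO and 482 to 993 in WT. Jchain, which joins IgA and IgM, was at 475 ± 89.6 and 484 ± 150 FPKM, and Sdc1 at 5.07 ± 0.90 and 5.83 ± 1.65 (SD, n = 5 each). Over the 10 libraries the Pearson r of each gene with the mean log2 level of the 8 markers was 0.20 to 0.81 (median 0.47), and 0 of the 10 relations passed an adjusted p of 0.05 over the 20 computed. The strongest was Dnajb9, with r = 0.81 (permutation p = 0.0048, adjusted p = 0.096, 100000 resamples), Spearman's rho = 0.84 (permutation p = 0.0037, adjusted p = 0.071), and r = 0.65 without the 2 libraries farthest from the median, WT 65 and KO 01. WT 65 had the lowest value of both Dnajb9 and this marker sum. The range moved with single libraries: r ran from -0.04 to 0.82 (median 0.25) without WT 73, from 0.42 to 0.80 (median 0.67) without WT 65 and from 0.53 to 0.79 (median 0.66) without WT 65 and WT 67, and 0 relations passed in any of these settings. The other 10 of the 20 relations were with exocrine pancreas markers. None passed (adjusted p of 0.568 or more, permutation test), and no pooled r is given because WT 67 and WT 65 stand apart from the other libraries on that measure. Within the other 8 libraries, where most of these markers had no read, r ran from 0.087 (Dnajb9) to 0.35 (Creld2) and Spearman's rho from -0.024 to 0.26 (exact permutation test, adjusted p of 0.718 or more for r and 0.894 or more for rho).

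Markers of other cell types moved with the groups too. Over all genes tested, 3.03% were lower and 2.62% higher at an unadjusted p under 0.05. Without WT 65 and WT 67 these shares were 2.81% and 2.24%. Of 10 neutrophil and neutrophil progenitor markers, 7 were lower in the DUSP6 KO spleens at that unadjusted p, the median log2 fold change was -1.14, no marker was at 0 in any library, and the sums were 564 to 1941 FPKM in DUSP6 KO and 1072 to 5083 in WT. The highest sum was in WT 77 and the lowest in KO 01. This count depended on single libraries: it was 1 without KO 01, KO 03 or WT 77, 2 to 4 without WT 73, KO 21 or WT 83, 10 without WT 67, and 10 (median -1.64) without WT 65 and WT 67. Of 8 splenic macrophage markers 3 were higher, among them Marco with a log2 fold change of 0.72 (sums of 863 to 1373 and 912 to 1115 FPKM). The median of the 8 was 0.09, and 2 were below 0. Without WT 65 and WT 67, 2 were higher and the median was 0.17. Of 8 stromal markers 1 was higher, with and without those libraries (sums of 84.4 to 233 and 92.9 to 224 FPKM). Their median was -0.0031 with 4 of 8 below 0, and 0.12 without those libraries. No B cell, T cell or erythroid marker passed an unadjusted p of 0.05 in either setting. All 8 B cell markers had a log2 fold change below 0 (median -0.18; sums of 685 to 1349 FPKM in DUSP6 KO and 778 to 1748 in WT), compared with 3 of 8 without WT 65 and WT 67 (median 0.0041). For T cells the median was 0.0086, and 0.09 without those libraries (sums of 139 to 282 and 169 to 249 FPKM). The erythroid median changed sign, from 0.22 with 1 of 8 markers below 0 to -0.20 with 7 of 8 below 0 (sums of 427 to 3418 and 434 to 2217 FPKM). None of these markers passed after adjustment in either setting, and their part in the levels of the ER chaperone genes was not tested.

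The remaining genes of the secretory pathway were examined by lists. The background over all genes tested was 3.03% lower and 2.62% higher at an unadjusted p under 0.05, with 51.0% below 0. Without WT 65 and WT 67 it was 2.81% lower and 2.24% higher. These shares hold for each list that follows. Of 24 other ER chaperones and folding enzymes, 2 were lower, 0 higher and 22 neither at an unadjusted p under 0.05, with 18 log2 fold changes below 0 and a median of -0.10. The lower genes were Ero1lb, an oxidase that recharges disulfide isomerases, at 8.66 ± 3.68 against 14.5 ± 2.62 FPKM (log2 fold change -0.82, unadjusted p = 0.0094, adjusted p = 0.633, limma), and Hyou1, an exchange factor of BiP, at 14.7 ± 1.32 against 18 ± 2.32 (-0.29, unadjusted p = 0.0162, adjusted p = 0.753, limma; SD, n = 5 each). The count was 4 without WT 67 and also 4 without WT 65 and WT 67, Fkbp2 (-0.24), Hyou1 (-0.35), Dnajc3 (-0.24) and Txndc5 (-0.43), with a median of -0.09, and Ero1lb was at -0.71 (unadjusted p = 0.0532 in limma). The next by p over all 10 libraries was Serp1, with a log2 fold change of -0.24. Pdia3 and P4hb, abundant disulfide isomerases, were both at -0.14, and Canx, the membrane-bound relative of calreticulin, was at 0.02.

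Of 14 sensors, proteases and transcription factors of the unfolded protein response, 1 was lower at an unadjusted p under 0.05, Xbp1. It was at 47.2, 56.7, 48.4, 34.2 and 50.5 FPKM in DUSP6 KO and at 53.3, 65.9, 82.2, 68.9 and 64.7 in WT. WT 65 alone fell within the DUSP6 KO range, and the highest and lowest libraries, WT 73 and KO 01, were those of Creld2. Its means were 47.4 ± 8.24 and 67 ± 10.3 FPKM (SD, n = 5 each), and it differed by -0.50 on the log2 scale (SE 0.15, unadjusted p = 0.00556, adjusted p = 0.555, limma). FPKM per gene does not separate the spliced from the unspliced Xbp1 transcript, so the activity of IRE1 was not measured. The count was 2 without KO 73 and also 2 without WT 65 and WT 67, Xbp1 (-0.61) and Nfya (-0.31, unadjusted p = 0.0454 in limma). Over all 10 libraries, Nfya and Mbtps1, next by p, were at -0.21 and 0.08, Atf4 at 0.02 and Ddit3 at -0.06. Among 13 targets of the PERK and ATF4 branch, 0 were lower and 1 was higher, Sesn2 (log2 fold change 0.27, unadjusted p = 0.0211, adjusted p = 0.779, limma), with a list median of 0.0048. With WT 65 and WT 67 left out, 0 were lower and 0 higher, and the median was -0.12. Over all 10 libraries, Nupr1 and Chac1, next by p, were at -0.79 and -0.63. WT 67, the library with most pancreas RNA, had the highest level of both. Nupr1 was at 25.8 FPKM there and at 2.64 to 5.18 in the other 9 libraries, Chac1 was at 1.73 there and at 0.220 to 1.17 elsewhere, and without WT 67 their log2 fold changes were -0.29 and -0.34.

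Genes of ER-associated degradation, which removes misfolded proteins, included 3 lower and 0 higher of 20, with a list median of -0.05. They were Edem1 (log2 fold change -0.33, unadjusted p = 0.0311), the ubiquitin ligase Syvn1 (-0.27, unadjusted p = 0.0342) and Derl3 (-0.43, unadjusted p = 0.0459), all by limma with adjusted p of 0.809 to 0.866. Herpud1 was at -0.23. The count was 0 without KO 01 or without WT 73, 1 without KO 73, 5 without KO 21 and 4 without WT 65 and WT 67 (median -0.10), where Edem1 was at -0.47, Derl3 at -0.55 and Syvn1 at -0.20 (unadjusted p = 0.152 in limma). Of 16 genes of signal sequence recognition, translocation and signal peptide cleavage, 0 passed in either direction (median -0.07), with Sec11c, Spcs2 and Sec61b lowest in p at -0.17, -0.16 and -0.12. Leaving out single libraries gave 0 to 3 lower (3 without KO 73), and without WT 65 and WT 67 Sec11c alone was lower (-0.23; list median -0.14). Of 16 chaperones of the cytosol and mitochondria 0 passed (median -0.03), with Hspa1b, Hsph1 and Hspa8 at -0.91, -0.58 and -0.27 and a wide spread between spleens. Here 3 were lower without KO 26, and 2 without WT 65 and WT 67, Hspa1b (-1.43) and Dnaja1 (-0.53; list median -0.09).

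**Figure D5:**
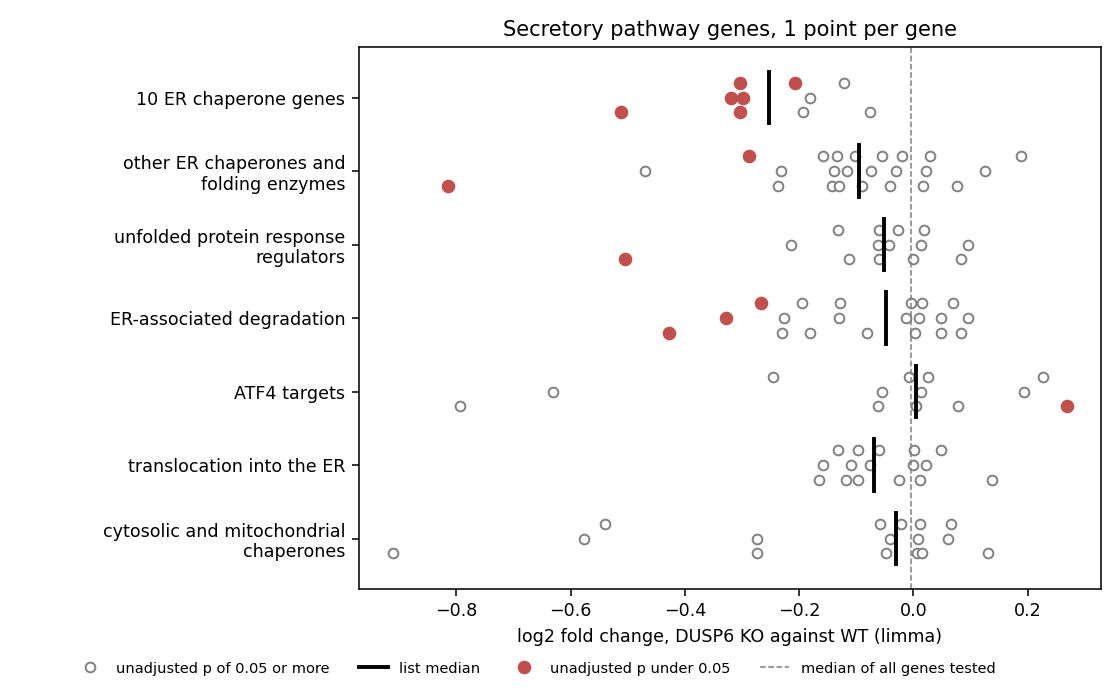
log2 fold change of DUSP6 KO against WT from limma (x axis) for each gene of 7 lists (rows), filled in red where the unadjusted p was under 0.05, with the list median as a black bar and the median of all genes tested as a dashed line. The medians run from -0.25 for the 10 ER chaperone genes to 0.0048 for the ATF4 targets, and red points other than those of the 10 genes number 7.

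The ERSE was set beside expression outside the 10 genes. Of 43 other genes with an exact ERSE or ERSE-II in the promoter, 23 were tested. Of these, 3 were lower and 0 higher at an unadjusted p under 0.05, and 15 had a log2 fold change below 0 (median -0.12). Over all genes tested, 3.03% were lower, 2.62% higher and 51.0% below 0. The 3 lower genes were Syvn1, Derl3 and Rbm39, a splicing factor with a log2 fold change of -0.18. Syvn1 and Derl3 were already counted among the genes of ER-associated degradation. Without KO 01 or without WT 73 none was lower, without KO 73, KO 03, WT 67 or WT 77 1 was, and without WT 65 and WT 67 there were 3 of 22, Rbm39, Dnajc3 and Derl3 (median -0.11). Among the 10 genes themselves, those with an ERSE were at -0.51 (Creld2), -0.32 (Pdia6), -0.30 (Hsp90b1), -0.21 (Calr) and -0.19 (Hspa5), Dnajb11 with the ERSE-II was at -0.12, and those with neither form were at -0.30 (Pdia4), -0.30 (Sdf2l1) and -0.08 (Dnajb9). These ranges overlap, and no difference between them was tested. By list, promoters were found for 19 other ER chaperones and folding enzymes, and 2 of them held either form, Dnajc3 and Canx. Of 16 promoters of ER-associated degradation genes 3 did, those of Syvn1, Derl3 and Herpud1. All of these are among the 43 other genes. Promoters were also found for 13 regulators, 13 ATF4 targets, 12 translocation genes and 12 chaperones of the cytosol and mitochondria. In these 4 lists 0 promoters held either form. With the ERSE in 0.119% and the ERSE-II in 0.0365% of all promoters, 0 in lists of this size carries little information.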

How the data were processed

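A service provider sequenced whole-spleen RNA of 5 DUSP6 KO and 5 WT mice taken 9 days into KSIA, each mouse as 1 library. Per the supplementary methods and the labels, paired-end reads were aligned with Hisat2 v2.0.5 and counted with featureCounts 1.5.0-p3, and the authors deposited FPKM values with a length for each of 54532 genes. The strand setting is not given in the sources used here. The labels name the human build hg38 among their processing terms, but the identifiers are of mouse genes and 53585 (98.3%) have the coordinates of GENCODE release M21 (GRCm38), so positions are given on GRCm38. The deposited table holds 0 further sample columns, and no comparison of the authors was used.

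In each library, FPKM times length came in whole steps (100% of values, to 0.001 of a step), and the reads were recovered from these steps for depths and for limma voom. Over 20 pairs of replicates the chi-square per gene was 14.7 to 169, and each mouse counts as 1 replicate. The groups were compared on log2(FPKM + 0.1) with limma 3.58.1 (R 4.3.3), using lmFit and the trend option of eBayes on genes averaging 0.1 FPKM or more, with Benjamini-Hochberg adjustment over all 21296; values of the 10 genes are far above the pseudocount. Single values were compared by two-sided exact permutation tests over 252 splits, and correlations by permutation tests of 100000 resamples in Python 3.11.15 with scipy 1.17.1. Near copies were sought with blastn 2.17.0 (at least 90% identity over 200 bases), and 3 of the 10 genes had a match. Calr and Dnajb9 have pseudogenes, Calr-ps at 0 and Gm6568 at 0.042 FPKM on average. Hsp90b1 matched 1810014B01Rik, which overlaps it on the opposite strand, with 100% identity over 273 bases (2.22 FPKM on average). Simulated data with known changes were used to try the test first.

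Genes named are the 10 genes, Dusp6, in each pathway list the 3 lowest in p and any with an adjusted p of 0.05 or less, Hyou1, Canx, P4hb, Pdia3, Xbp1, Atf4, Ddit3 and Herpud1, the 10 genes most correlated with the mean of the 10, the neighbours of Hsp90b1, and 4 markers (Jchain, Sdc1, Prss2, Cpa1). Prss2 and Cpa1, of exocrine pancreas, are given within their list. Marco, Rbm39, Xist and Ddx3y fall outside this rule and were added with their values known. The 10 genes and the lists were chosen with earlier results of these data known. Alternatives were other pseudocounts, filters, eBayes settings and scalings, limma voom, leaving out each library in turn, and leaving out WT 65 and WT 67. The last 2 were also applied to the gene lists, a step added after seeing the data, and relations within 8 libraries were tested over all permutations.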

Additional observations from a re-analysis of the deposited data

Results flagged for a closer look

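Each group of 5 spleens was searched for a library whose gap to the nearest other exceeded 0.71 of the range of the group (Dixon's 95% value). Of 66 such groups, over the 10 genes, 13 pathway genes, 8 marker sums, the immunoglobulin share and the ratio of Hsp90b1 to Hspa5, 4 held one, where chance gives about 1 in 20. In Calr, KO 26 stood apart at 195 FPKM, above the 165 to 173 FPKM of the other DUSP6 KO spleens and within the WT range. The same spleen stood apart in Pdia3, a disulfide isomerase that works with calreticulin, at 159 FPKM against 131 to 138 FPKM. The exocrine pancreas markers summed to 20300 FPKM in WT 67, against 13.4 to 252 FPKM in the other WT spleens. The stromal markers summed to 233 FPKM in KO 21, against 84.4 to 119 FPKM in the other DUSP6 KO spleens.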

How the results depend on the processing

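Over 21 alternatives, 209 of the 210 log2 fold changes of the 10 genes were below 0, and the lowest adjusted p was 0.368 (Pdia6 without KO 26). The exception was Dnajb9 without WT 77, at 0.015 (unadjusted p = 0.939, limma), and the cause was not tested. The number of genes lower at an unadjusted p under 0.05, 6 in the main analysis, was 3 to 5 when a library was left out, 3 of them without WT 73, and 4 to 6 in the other settings. Hsp90b1, Pdia6 and Creld2 were below that p in all 21, Sdf2l1 in 17, Calr in 9, Pdia4 in 7, Dnajb9 in 2 (-0.26 without WT 65 and -0.37 without WT 65 and WT 67, the latter a setting added after seeing the data), Hspa5 in 1, and Dnajb11 and Manf in 0. The median log2 fold change of the 10 lay between -0.31 and -0.21, and the log2 difference of the ratio of Hsp90b1 to Hspa5 between -0.15 and -0.06. The sources describe no pairing of mice between the groups, so no paired analysis was made. The 1 replicate number that the groups share (73) is an animal number and is not taken as a pair. With 5 spleens a group, the smallest exact permutation p is 0.00794. Each of the 10 genes had at least 369 reads in every library. The size of the counting error beside the spread between spleens was not tested.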
